A study of Saccharomyces cerevisiae with 16 samples.

Results

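Tandem genes are neighbours that lie head to tail on the same DNA strand, so that the space after the upstream gene holds both its transcript end and the promoter of the next gene. In the R64 annotation of Saccharomyces cerevisiae, 2875 of 6002 protein-coding genes have a next downstream gene on their own strand. Of these, 940 had at least 50 tags in each of 12 libraries within the 400 nt after the open reading frame (ORF) and before the next gene, and these 940 are the members described here. A tag is a sequencing read that marks the last base of a transcript before its poly(A) tail. The next gene codes for a protein in 912 members, a tRNA in 17, a snoRNA in 8, an snRNA in 2, and it is a pseudogene in 1. Another 940 genes passed the same tag minimum with the next gene on the other strand, which makes 1880 genes in each fit of length.

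All groups are the haploid strain BY4741 (Mat a; the genes his3, ura3, met15 and leu2 are mutated), grown in the rich medium YPD at 30 °C. Colonies that had grown from cells enclosed in alginate particles were fixed with ethanol and sorted by size into small (4 libraries labelled, of which the submitters excluded replicates 1 and 3 for low quality) and big (3 libraries). Fixed particles were also taken unsorted (total, 3 libraries), and others were neither fixed nor sorted (nofix, 2 libraries). Batch cultures grown without particles were harvested at Abs600 2 (YPD2, 2 libraries) and at Abs600 0.5 (YPD05, 2 libraries). Small replicate 4 is a small fixed sample by its title and description, whereas another of its labels calls it not fixed, and its barcode was read in a separate read. The 12 libraries of the other 5 groups held 1506960 to 4750543 tags, and small replicates 2 and 4 held 1873907 and 7871184. Tags in the members' windows were 31.96% to 40.01% of these 12 libraries, 40.12% of small replicate 2 and 25.02% of small replicate 4. The a-cell genes MFA1, MFA2, STE2 and BAR1 had 11 to 8965 tags per library, while the alpha-cell genes MF(ALPHA)1, MF(ALPHA)2 and STE3 had 0 to 137. Of the 4 mutated marker genes, counted with the 400 nt after them, HIS3 had 346 to 2458 tags per library, LEU2 0 to 519, URA3 1 to 84 and MET17 (mutated as met15) 0 to 3. Within the ORFs alone, these genes had at most 8, 1, 0 and 0 tags.

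Yeast messenger RNAs end where the nascent RNA is cleaved and a poly(A) tail is added by the cleavage and polyadenylation factor together with the cleavage factors IA and IB. The signals are short and loose. They comprise a TA-rich efficiency element, of which TATATA is the best studied form, an A-rich positioning element such as AATAAA closer to the end, and the cleavage site itself, usually after a pyrimidine and before an A. Many genes use several ends, and the use of a proximal end (near the ORF) or a distal one changes which sequence the 3′ untranslated region (UTR) carries. Between tandem genes, an end placed too far downstream would run into the next promoter.

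The ends on which the results turn are shown here as the 30 bases that finish at the most used position of each end, on the transcript strand of R64, with any TATATA or AATAAA in capitals. PFK1, RCK2, VTC1, YPR170W-B, CWP2 and NNR1 were chosen because their proximal and distal ends differed between the cultures, or between nofix and the other particles, with calls in length or end use. GPB1 and SRB4 are given as members with a nearly fixed end.
PFK1 proximal end, 100 nt after the ORF, chrVII:970671-970700, minus strand: tcgtttttttgtcataagacttatttatgt
PFK1 distal end, 237 nt after the ORF, chrVII:970534-970563, minus strand: acaatgagcaatgaacatatttctaatcct
RCK2 proximal end, 77 nt after the ORF, chrXII:636132-636161, plus strand: aTATATATAcattaaactccttctacaagt
RCK2 distal end, 144 nt after the ORF, chrXII:636199-636228, plus strand: taacattttaagataagcaagtgaatgttg
VTC1 proximal end, 113 nt after the ORF, chrV:303279-303308, plus strand: cgcaTATATAgaaagtatccatctataggt
VTC1 distal end, 146 nt after the ORF, chrV:303312-303341, plus strand: catgaacAATAAAaatattcacgtttcagg
YPR170W-B proximal end, 81 nt after the ORF, chrXVI:883647-883676, plus strand: TATATActtatcgtaacctcgttccatgtg
YPR170W-B distal end, 196 nt after the ORF, chrXVI:883762-883791, plus strand: atatgaattctaatcAATAAAagtcacagt
CWP2 proximal end, 62 nt after the ORF, chrXI:259564-259593, plus strand: cttttttcaaaattttcggttttactaggt
CWP2 distal end, 170 nt after the ORF, chrXI:259672-259701, plus strand: ataccataaaAATAAAacactttttacttt
NNR1 proximal end, 76 nt after the ORF, chrXIV:263637-263666, minus strand: cccttattttgtgaacaaatagccatcatg
NNR1 distal end, 350 nt after the ORF, chrXIV:263363-263392, minus strand: acctagtgctttcaaaacccgcgcatactg
GPB1 single end, 84 nt after the ORF, chrXV:1031405-1031434, minus strand: gaaaacgagaaaattttttcgtggaacttg
SRB4 single end, 99 nt after the ORF, chrV:200945-200974, plus strand: tacgtacaaaaggacaagatcttatcttcg

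The 3′ UTR length of a member was taken, in each library, as the average distance between its tags and the ORF end. Averaged over the 12 libraries with equal weight, it had a median of 99.9 nt over the 940 members, with quartiles of 78.7 and 136 nt. In 723 members (76.9%) the length lay between 50 and 150 nt, in 36 it was under 50 nt and in 70 it was over 200 nt. Genes whose next gene is on the other strand had a median of 108 nt, with quartiles of 83.5 and 148 nt, and this difference was not tested. The distance to the next gene had a median of 379.5 nt among the members. The 50 members with at most 200 nt to the next gene had a median length of 68.9 nt, and the 271 members with more than 500 nt had 120 nt. The window itself stops at the next gene, which caps the length in the first of these sets. Across the members, Spearman's rho between that distance and length was 0.394, given as a description over genes that share the same libraries.

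At the long extreme, PUS2 (a pseudouridine synthase), HAC1 (the transcription factor of the unfolded protein response), PDP3, LSO2 and SWM1 (a subunit of the anaphase-promoting complex) had mean lengths of 391, 388, 380, 372 and 346 nt. HAC1 lay between 384 and 390 nt in all 12 libraries. Ends beyond 400 nt were not counted, so lengths this close to the limit may be understated. HMRA1, SPC105 (a kinetochore protein), RPN14 (a proteasome assembly chaperone), SYF1 (a splicing factor) and RNH202 (a ribonuclease H2 subunit) were the shortest, at 24.1, 33.6, 33.7, 36.3 and 37.6 nt. HMRA1, a silent mating-type cassette, shares its sequence with the expressed a1 gene of this strain, so its tags may belong to that locus.

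An end was counted where at least 10% of a member's tags, pooled over the 12 libraries with equal weight, lay within 15 nt of a local maximum. On this count 506 members had 1 end, 342 had 2, 85 had 3, 6 had 4 and 1 had 6. The member with 6 ends was RPL9B, a protein of the large ribosomal subunit with a close paralogue, and it also had the most positions: 20.1 distinct positions are expected in a draw of 50 of its tags. The median over members was 9.28 positions. At the other extreme, GPB1 and SRB4 (a Mediator subunit) were expected to show 2.28 and 2.39 positions, and GPB1 varied by only 0.135 nt (SD, n = 12 libraries) around 84.0 nt. The 434 members with at least 2 ends (46.2%, against 52.8% of the genes whose next gene is on the other strand, a difference that was not tested) were compared at their 2 most used ends. The proximal end lay at a median of 81 nt and the distal end at 138.5 nt, a median of 48 nt apart. The proximal end was the more used in 261 of the 434 members and the distal end in 173.

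TATATA, searched on the transcript strand only, lay within the 60 nt before 33.4% of the proximal ends, 18.2% of the distal ends and 41.9% of the single ends, against 12.5% of all windows of that length after the members' ORFs. AATAAA, searched in the same way within 40 nt, lay before 8.76% of the proximal, 8.99% of the distal and 11.1% of the single ends, against 5.50% of all windows. With ends a median of 48 nt apart, the 60-nt windows before a member's 2 ends overlap in many members. The ends of RCK2, VTC1 and YPR170W-B printed above show TATATA at the proximal end, and those of VTC1, YPR170W-B and CWP2 show AATAAA at the distal end. The printed proximal ends of PFK1, CWP2 and NNR1 and distal ends of PFK1, RCK2 and NNR1 show neither. The base after a tag's position was A for 83.4% to 85.1% of the tags in the 12 libraries, and the end base itself was T for 39.6% to 44.3%, G for 37.8% to 40.9%, C for 15.9% to 17.7% and A for 1.53% to 2.04%. An A of the transcript next to the tail cannot be told from the tail, so the tags do not fix the cleaved base itself. At the positions of the tags, G was about as frequent as T. These are matches of letters, and no factor's binding was measured.

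The denser batch culture had shorter 3′ UTRs and used distal ends less than the thinner one in most members. Median length was 86.4 and 95.4 nt in the YPD2 libraries, against 100.8 and 100.4 nt in YPD05. The other 8 libraries (nofix, total and big) lay between 100.8 and 103.0 nt. The median share of the distal end among tags at the 2 main ends was 12.1% and 27.0% in YPD2, against 41.9% and 42.2% in YPD05, with 38.9% to 44.0% in the other 8 libraries. Both YPD2 libraries were therefore below all others in both medians, and YPD2 replicate 1 was the farther away.

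**Figure D1:**
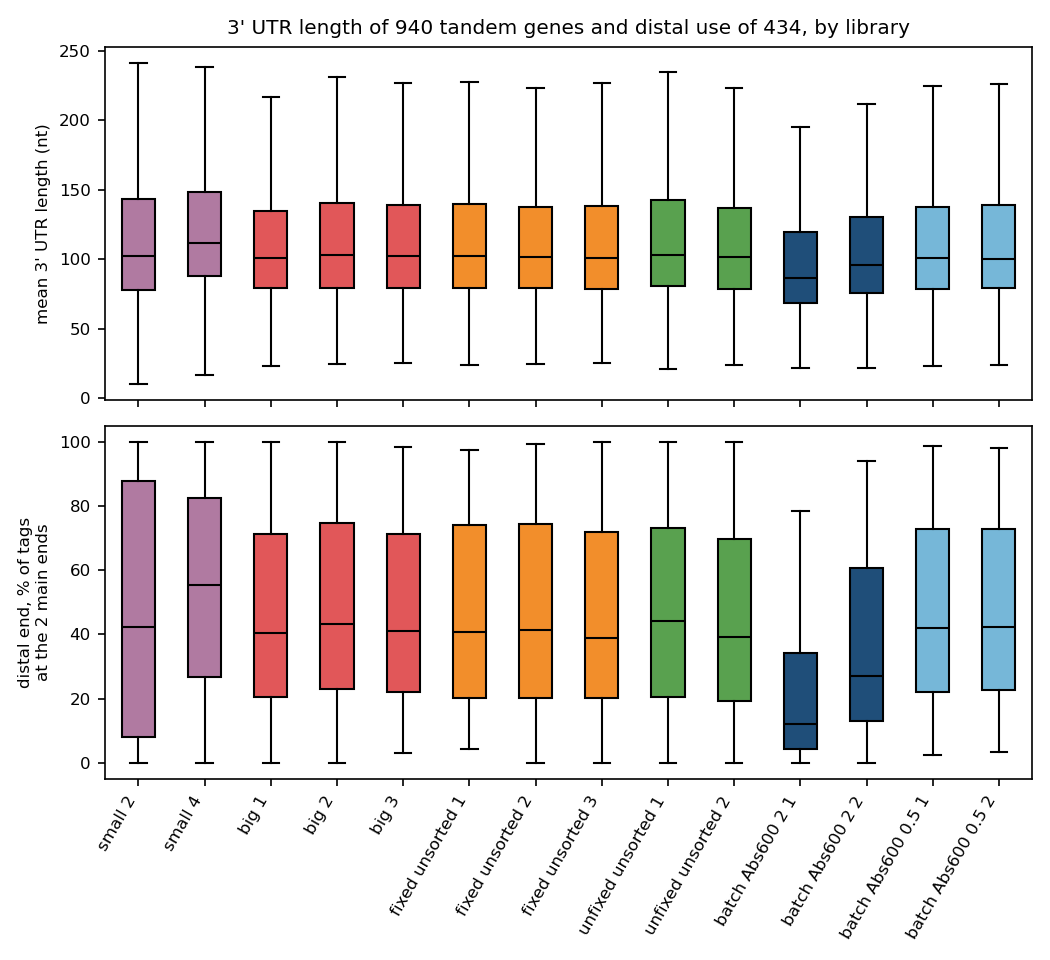
Box plots of the mean 3′ UTR length in nt of the 940 members (top) and of the distal end's percentage of tags at the 2 main ends in 434 members (bottom), 1 box per library, with the median as a line, the quartiles as the box and whiskers to the farthest value within 1.5 times the box height; the small libraries include members with few tags there. The YPD2 boxes (batch Abs600 2) are centred at 86.4 and 95.4 nt and at 12.1% and 27.0%, below the YPD05 boxes (batch Abs600 0.5) at 100.8 and 100.4 nt and at 41.9% and 42.2%.

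For each member, limma was fitted to the lengths of all 1880 genes in the 12 libraries, and edgeR's quasi-likelihood test was fitted to the tags at the 2 main ends of 930 genes. Length fell past an adjusted p of 0.05 (limma, Benjamini-Hochberg) in YPD2 against YPD05 in 30 of 940 members and rose in 0, against 3.46% of all genes tested. At an unadjusted p under 0.05 it differed in 310 members. Here and below, counts at an unadjusted p, with DESeq2 or in alternative fits are for members only. They have no share over all genes beside them and do not set the members apart. The ratio of distal to proximal tags fell in 60 of 434 members and rose in 0 (edgeR, same threshold), against 13.8% of all genes tested, and DESeq2 called 148. Of the members, 73 were called in length or in end use and 17 in both. Among all genes tested 8.35% were called in length or in end use, and 3.87% of those with 2 ends in both. The shares of members are near those over all genes. The median difference over the members was -6.73 nt, against -8.04 nt over all genes tested, with 901 of 940 members below 0. In end use it was a log2 odds ratio of -1.64, against -1.70 over all genes tested, with 415 of 434 members below 0. Both YPD2 libraries were below both YPD05 libraries in length in 715 members (76.1%, against 77.3% of all genes tested) and in distal share in 316 (72.8%, against 72.8%). Both were above in 9 members in length, against 0.638% of all genes tested, and in 9 in distal share, against 1.29%.

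The size of the difference varied with the number of ends. Members with 1 end had a median length difference of -3.92 nt, with 479 of 506 below 0. Members with 2 ends had -11.3 nt, with 332 of 342 below 0, and those with 3 or more had -23.3 nt, with 90 of 92 below 0. The ends were counted with the YPD2 libraries included, and a mean over spread ends has more room to move than a single peak. The number of ends and the difference are thus not independent, and this order was not tested. Distances between ends were taken at their most used positions. The log2 odds ratio of distal to proximal tags had a median of -1.52 in the 237 members with ends at most 50 nt apart. The median was -1.80 at 51 to 100 nt (128 members) and -1.84 beyond 100 nt (69 members). It was -1.63 in the members that use the proximal end more and -1.69 in those that use the distal end more. Summed over the 434 members, proximal tags were 78426 and 67641 CPM (counts per library scaled to a common depth) in YPD2, against 54625 and 49037 in YPD05. Distal tags were 22038 and 40519 CPM in YPD2, against 58743 and 43534 in YPD05. The distal sum of YPD2 replicate 2 was above those of total replicates 2 and 3 (38356 and 39132 CPM) and below every other total, big and nofix library. The median member had 16.6 and 37.7 CPM at the distal end in YPD2, against 48.2 and 45.9 in YPD05. At the proximal end it had 96.3 and 84.0 CPM in YPD2, against 55.1 and 50.4 in YPD05. In these bulk samples, a change in the share of cells that use an end and a change within each cell cannot be told apart.

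**Figure D2:**
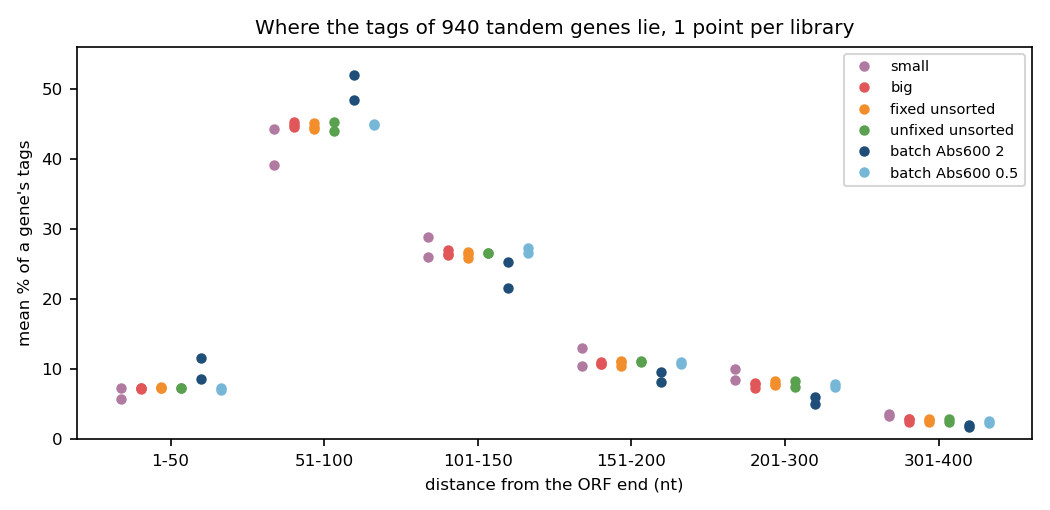
Mean percentage of a member's tags (vertical axis) in each range of distance from the ORF end in nt (horizontal axis), over the 940 members, with 1 point per library. In YPD2 (batch Abs600 2) 11.6% and 8.53% of the tags lay within 50 nt and 52.0% and 48.49% at 51 to 100 nt, against 6.99% and 7.28%, and 44.93% in both, in YPD05 (batch Abs600 0.5).

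The calls rest on few libraries. With only the 2 groups fitted, 0 members were called in length and 0 in end use (158 and 106 at an unadjusted p under 0.05), and with the 2 small libraries added to the fit 1 and 0 (161 and 67). With the replicate number as a block, 12 were called in length and 52 in end use. Leaving out either YPD05 library or YPD2 replicate 1 left 0 members called in length and 0 in end use (at an unadjusted p under 0.05, 104 to 171 in length and 67 to 108 in end use), with medians of -3.79 nt and -0.88 (log2) without YPD2 replicate 1. Leaving out YPD2 replicate 2 raised the calls to 293 and 225, with medians of -9.63 nt and -2.37 (log2). In 843 of 940 members replicate 1 of YPD2 was shorter than replicate 2, as in 89.4% of all genes tested. Replicate 2 was itself below all 10 libraries of the other 4 groups in length in 413 members, against 46.3% of all genes tested, and in distal share in 170, against 40.3%. Both replicates were below them in length in 383 members (40.7%, against 43.6%) and in distal share in 151 (34.8%, against 36.6%). Pooled over the members, tags at A-rich positions, where a primer can bind inside a transcript, were 17.1% and 11.3% of the window tags in YPD2. The pooled values in YPD05 were 12.95% and 15.8%. The median share per member was 0.189% and 0.190% in YPD2, against 0.463% and 0.517% in YPD05. Without A-rich positions the calls were 43 in length and 67 in end use. The expected number of positions in 50 tags was 8.95 and 9.11 in YPD2, against 9.93 and 9.88 in YPD05.

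PFK1 encodes a subunit of phosphofructokinase, the committed step of glycolysis. Its mean length was 117 and 142 nt in YPD2, against 183 and 189 nt in YPD05, and the other 8 libraries lay between 174 and 196 nt. The distal end held 5.26% and 28.5% of the tags at the 2 main ends in YPD2, against 72.4% and 74.7% in YPD05. The groups did not overlap. Length differed by -56.9 ± 8.28 nt (SE; limma, adjusted p = 0.0265) and the log2 odds ratio was -4.20 ± 1.04 (SE; edgeR, adjusted p = 0.0214). ENO2, the enolase of fermenting cells, also fell in both measures, by 11.1 nt and by 1.95 on the log2 odds scale, and PFK1 and ENO2 were the 2 of 6 glycolysis members called in length. Among all genes tested 3.46% were called. All 6 glycolysis members were below 0, as were 1807 of all 1880 genes, and their median was -23.2 nt, against -8.04 nt over all genes. In end use, 2 of the 4 with at least 2 ends were called, against 13.8% of all genes tested. Their median log2 odds ratio was -1.855, against -1.70 over all genes tested.

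RCK2, a protein kinase that acts downstream of the osmotic stress kinase Hog1, used its distal end less in YPD2. Its distal share was 22.5% and 47.8% in YPD2, against 97.3% and 97.8% in YPD05, with 72.7% to 99.0% in the other 8 libraries. The YPD05 shares rest on 113 and 92 tags and have 95% Wilson intervals of 92.5% to 99.1% and 92.4% to 99.4%. The log2 odds ratio was -6.24 ± 1.34 (SE; edgeR, adjusted p = 0.0175), and length differed by -38.2 ± 6.04 nt (SE; limma, adjusted p = 0.0266). HOG1 itself, also a member, fell by 4.17 on the log2 odds scale (edgeR, adjusted p = 0.024).

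VTC1, a subunit of the vacuolar polyphosphate polymerase complex, had a distal share of 30.6% and 74.5% in YPD2, against 97.8% and 96.6% in YPD05. The 2 YPD2 libraries were far apart, and both were below the other 10 of the 12 libraries, which lay between 86.8% and 99.8%. The log2 odds ratio was -4.98 (edgeR, adjusted p = 0.0355), while its length difference of -16.0 nt was not called (limma, adjusted p = 0.0989).

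YPR170W-B had a mean length of 94.7 and 90.6 nt in YPD2, against 144 and 152 nt in YPD05, so here the YPD2 libraries were close to each other. Its distal share was 9.46% and 9.04% in YPD2, against 53.2% and 62.9% in YPD05, with 41.7% to 85.1% in the other 8 libraries. CCT8, a subunit of the cytosolic chaperonin, had 95.9 and 127 nt in YPD2, against 162 and 166 nt in YPD05. RBL2, a tubulin folding cofactor, had 47.3 and 48.2 nt in YPD2, against 98.6 and 96.6 nt in YPD05. All 3 passed in length, with differences of -54.8, -52.5 and -50.1 nt (limma, adjusted p = 0.0483, 0.0421 and 0.0388).

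In 3 members the distal end held at most 1 tag in each YPD2 library. RBD2, a rhomboid-like membrane protease, had 0 of 228 and 0 of 293 tags at the distal end in YPD2, which allows shares of up to 1.32% and 1.02%, against 8.14% and 15.1% in YPD05. Nofix replicate 1 also had 0 of 73, which allows up to 4.11%. BUD7, a cargo adaptor of the secretory pathway, had 1 of 50 and 0 of 149 distal tags in YPD2, against 32.7% and 22.6% in YPD05. RIB3, an enzyme of riboflavin synthesis, had 1 of 246 and 0 of 295 in YPD2, against 5.68% and 15.5% in YPD05. All 3 were called by edgeR (adjusted p = 0.0214, 0.0229 and 0.024). Fitted ratios against counts this low depend on the fit's prior and are not given.

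**Figure D3:**
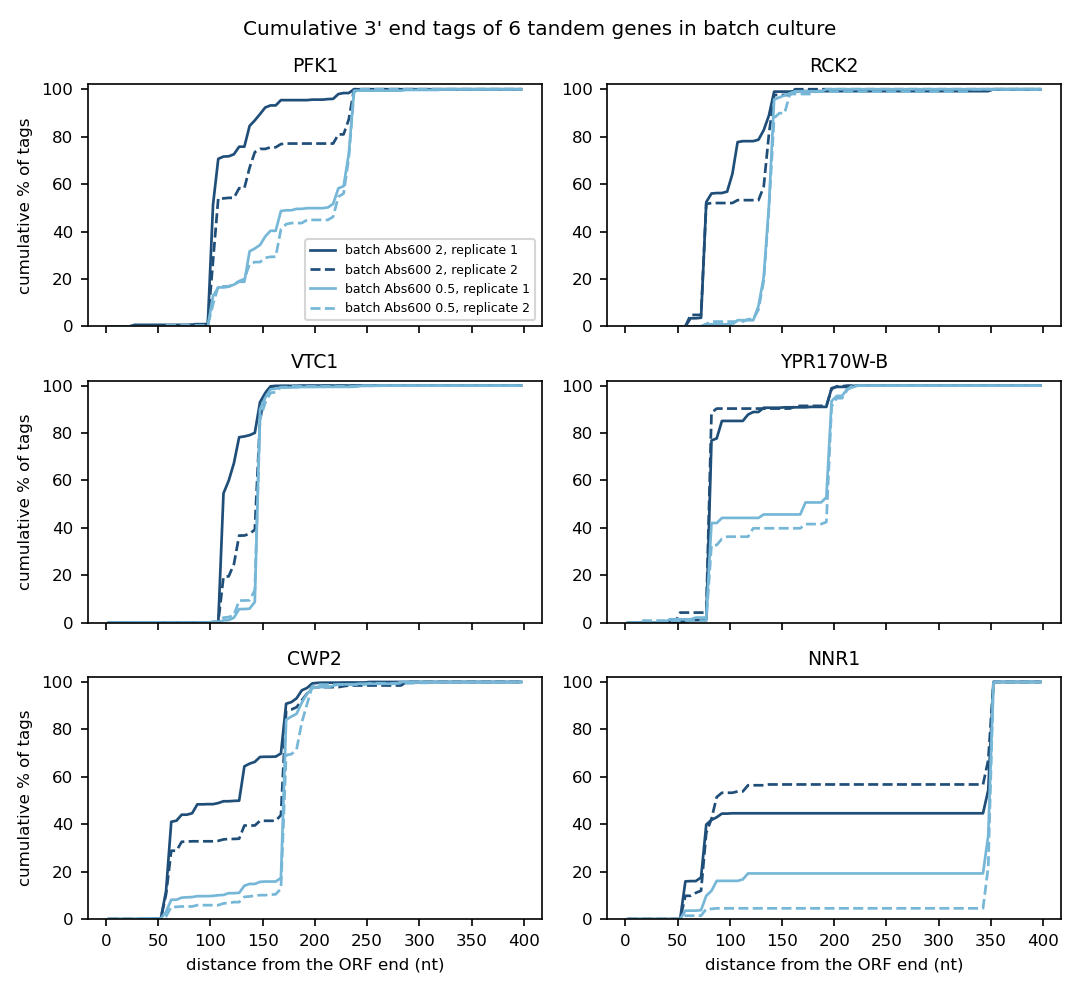
Cumulative percentage of tags (vertical axis) against distance from the ORF end in nt (horizontal axis, 5-nt steps) for 6 members in the 2 YPD2 libraries (batch Abs600 2, dark) and the 2 YPD05 libraries (batch Abs600 0.5, light), replicate 1 solid and replicate 2 dashed. In PFK1, RCK2, VTC1, YPR170W-B and CWP2 the dark curves climb earlier, and in YPR170W-B the 2 dark curves nearly coincide, at mean lengths of 94.7 and 90.6 nt.

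Other members that passed came from several parts of the cell's machinery and are named here after their values were seen. Beside the counts of each list below stand the shares over all genes tested, 3.46% in length and 13.8% in end use. Among translation factors, SUI1 (initiation factor 1) and PRT1 (a subunit of initiation factor 3) fell in length by 22.3 and 33.8 nt and in end use by 4.49 and 3.58 on the log2 odds scale. The wall protein CWP2 and the protein mannosyltransferase PMT1 fell in length by 41.8 and 21.3 nt. CFT1, a subunit of the cleavage and polyadenylation factor itself, fell by 17.8 nt and was the only 1 of 8 members with roles in 3′ end processing called in length, with 0 of 6 called in end use. Among cytosolic ribosomal proteins, 1 of 68 was called in length (RPL13B, by 10.7 nt) and 3 of 33 in end use (RPS1A, RPS13 and RPS24A), and the medians of -6.51 nt and -1.08 (log2) stood beside -8.04 nt and -1.70 over all genes tested. These ribosomal proteins have paralogues whose shared reads the counting could split. In the proteasome 1 of 15 was called in length (PUP1) and 3 of 8 in end use (PUP1, RPN6 and RPN7). In mitochondrial ribosomal proteins 0 of 13 and 1 of 7 (MRPL36) were called, and in ribosome biogenesis 1 of 12 (NOC3) and 0 of 4. General stress genes had 0 of 2 called in length and no member with 2 ends, and the single RNA polymerase subunit was called in neither measure.

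**Figure D4:**
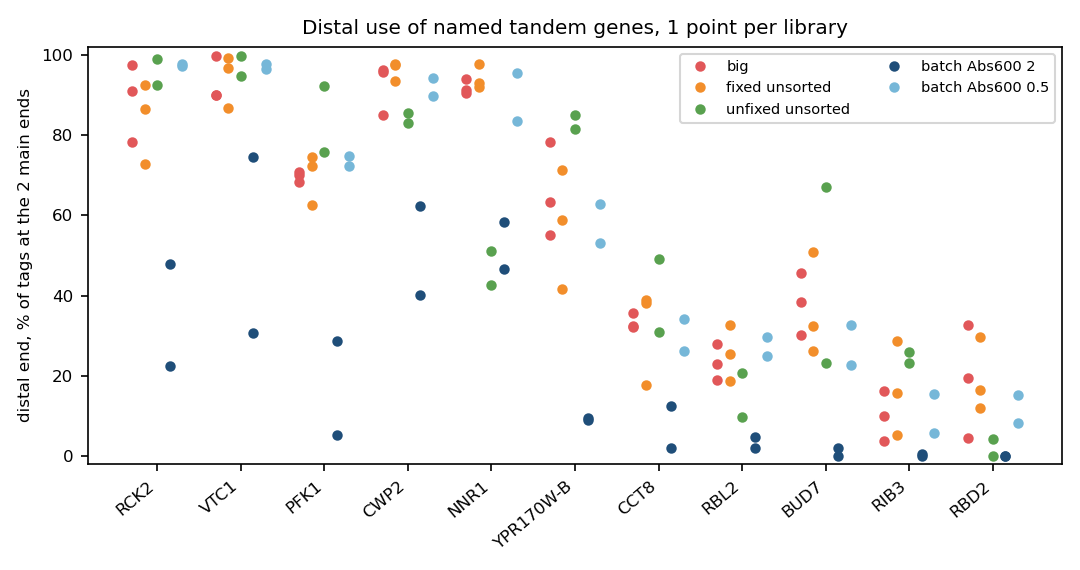
Percentage of tags at the distal end among those at the 2 main ends (vertical axis) for 11 named members, with 1 point per library of big, total (fixed unsorted), nofix (unfixed unsorted), YPD2 (batch Abs600 2) and YPD05 (batch Abs600 0.5). The YPD2 points of RCK2, at 22.5% and 47.8%, lie below the YPD05 points at 97.3% and 97.8%, while in NNR1 the nofix points, at 51.03% and 42.7%, are low like the YPD2 points, at 58.5% and 46.7%.

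The 3 members on a further list, of genes whose 3′ ends or 3′ processing role are well studied, were not called. PAB1, the poly(A)-binding protein, had 125 and 119 nt in YPD2, against 128 and 119 nt in YPD05, a difference of -1.36 ± 5.75 nt (SE; limma, adjusted p = 0.855). Its distal share was 93.0% and 80.6% in YPD2, against 77.8% and 71.5% in YPD05, the opposite order to most members (edgeR, adjusted p = 0.273). PMA1, the plasma membrane proton pump, had 20.4% and 9.32% distal tags in YPD2, against 24.4% and 26.3% in YPD05, and was not called. NRD1, which terminates short non-coding transcripts, had 1.63% and 0.631% distal tags in YPD2, against 6.29% and 11.9% in YPD05, and missed the threshold (edgeR, adjusted p = 0.0631).

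Encapsulated cells without fixation differed from the batch culture at Abs600 0.5 in few members. The comparison of nofix with YPD05 asks what growth in particles changes. Length was called in 2 of 940 members (limma), against 0.106% of all genes tested, with 1 higher and 1 lower, against 0.0532% in each direction. End use was called in 0 of 434 (edgeR), against 0.323% of all genes tested, of which 0.108% were higher and 0.215% lower. Both nofix libraries were above both YPD05 libraries in length in 206 members, against 22.7% of all genes tested, and below in 199, against 22%. In distal share they were above in 93 members, against 24.2%, and below in 112, against 24.6%. At an unadjusted p under 0.05 there were 78 in length and 37 in end use, and DESeq2 called 5 in end use. The median difference over the members was 0.249 nt, against 0.230 nt over all genes tested, and 0.05 (log2 odds), against 0.03, with a median 95% half-width of 9.09 nt and of 1.95 on the log2 odds scale per member. A draw of 50 tags is expected to hold 7.38 and 8.29 positions in nofix, against 9.93 and 9.88 in YPD05 and 9.51 to 10.2 in total. The part of this difference in the nofix comparisons was not tested.

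The 2 members were NNR1 and RPS27B. NNR1, a repair enzyme of damaged NADH, had 214 and 190 nt in nofix, against 298 and 337 nt in YPD05, a difference of -115 ± 14.4 nt (SE; limma, adjusted p = 0.0352). Its distal share was 51.03% and 42.7% in nofix and 58.5% and 46.7% in YPD2, against 83.5% and 95.5% in YPD05, while big and total libraries lay between 90.6% and 97.7%. The nofix and YPD2 libraries were thus low together, and every other library of the 12 was high. RPS27B, a protein of the small ribosomal subunit with a close paralogue, had 109 and 99.9 nt in nofix, against 82.1 and 82.6 nt in YPD05 (22.3 ± 2.81 nt, SE; limma, adjusted p = 0.0352). With the window limited to 200 nt its difference was -1.70 nt, so the longer value came from tags beyond 200 nt. Without nofix replicate 2 the count of members called in length was 27, and it was 0 without YPD05 replicate 2 and 1 without YPD05 replicate 1 or nofix replicate 1. In end use it was 5 without nofix replicate 2 and 1 without YPD05 replicate 2.

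Fixed unsorted particles were set against unfixed ones to show what fixation changes. Length was called in 3 of 940 members (limma), against 0.266% of all genes tested, with 1 higher, against 0.0532%, and 2 lower, against 0.213%. End use was called in 1 of 434 (edgeR, with 5 by DESeq2), against 0.538%, and it was higher, against 0.323% higher and 0.215% lower among all genes tested. The total libraries were all above both nofix libraries in length in 139 members, against 16.6%, and below in 133, against 12.9%. In distal share they were above in 63 members, against 15.4%, and below in 67, against 14.6%. NNR1 was called in both: it had 327, 343 and 330 nt in total, against 214 and 190 nt in nofix, a difference of 131 ± 13.2 nt (SE; limma, adjusted p = 0.00669) and a log2 odds ratio of 4.31 ± 0.739 (SE; edgeR, adjusted p = 0.00899). RPS27B fell, with 81.4, 80.3 and 81.6 nt in total, against 109 and 99.9 nt in nofix (limma, adjusted p = 0.00782). UTP13, a subunit of the small-subunit processome, had 99.4, 99.8 and 98.8 nt in total, against 114 and 110 nt in nofix (limma, adjusted p = 0.0372). Since nofix is also the first group of the comparison with YPD05, the values of NNR1 and RPS27B in these comparisons share the nofix libraries. The median differences over the members were -0.0631 nt, against 0.204 nt over all genes tested, and -0.02 (log2 odds), against -0.03. Counts in length were 8 without nofix replicate 1 and 29 without nofix replicate 2, and the single call in end use was lost without either.

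Big colonies did not differ detectably from unsorted fixed particles. In big against total, 0 of 940 members were called in length (limma) and 0 of 434 in end use (edgeR), against 0% of all genes tested in both, with 14 and 1 at an unadjusted p under 0.05, and DESeq2 called 0 in end use. The median length difference was -0.0777 nt, against -0.247 nt over all genes tested, and the median log2 odds ratio was 0.04, against 0.02. All big libraries were above all total libraries in length in 23 members, against 2.5% of all genes tested, and below in 40, against 4.31%. In distal share they were above in 18 members, against 3.12%, and below in 6, against 1.61%. The median 95% half-width was 7.01 nt for length and 1.57 for the log2 odds ratio. These half-widths are not adjusted for the number of genes and vary between members, so they do not set the size needed for a call.

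**Figure D5:**
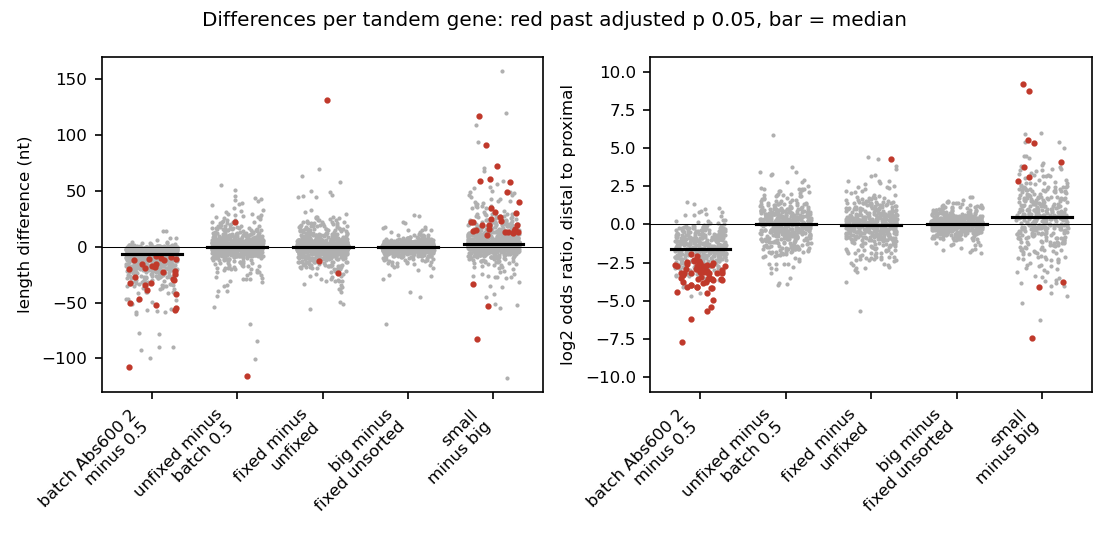
Difference of each member in mean length in nt (left) and log2 odds ratio of distal to proximal tags (right) in 5 comparisons, with 1 point per member, red where the adjusted p was under 0.05 and a bar at the median. The YPD2 minus YPD05 column (batch Abs600 2 minus 0.5) is centred at -6.73 nt and -1.64, the big minus total column at -0.0777 nt and 0.04, and the small minus big column spreads in both directions around 2.81 nt and 0.48.

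Small colonies were compared with big ones over the 795 members that also had 50 tags in small replicates 2 and 4. For the test of end use, the 2 main ends were counted anew over the 14 libraries, the small ones included. Length was called in 32 of 795 members (limma), against 4.12% of all genes tested, with 29 higher in small, against 3.68%, and 3 lower, against 0.444%. End use was called in 11 of 376 (edgeR), against 2.9%, with 8 higher, against 2.27%, and 3 lower, against 0.631%. DESeq2 called 51 in end use. Both small libraries were above all big ones in length in 162 members, against 20.2%, and below in 60, against 6.65%. In distal share they were above in 76 members, against 20.4%, and below in 30, against 7.69%. The median difference was 2.81 nt, against 3.71 nt over all genes tested, and 0.48 (log2 odds), the same as over all genes tested. The 2 small libraries did not move together. Replicate 4 was above all 3 big libraries in length in 476 of 795 members, against 62.1% of all genes tested, and below in 158, against 17.3%. Replicate 2 was above in 285, against 35.9%, and below in 334, against 43.3%. Without replicate 4 the median difference was -0.634 nt with 98 members called in length and 161 in end use, and without replicate 2 it was 3.84 nt with 243 and 80 called. Leaving out any of the big libraries lowered the calls to 7 in length and 4 in end use.

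These small libraries also stood apart in other measures. A draw of 50 tags is expected to hold 4.32 positions in small replicate 2 and 11.7 in replicate 4, against 8.94 to 9.82 in big. The base after the end was A for 84.1% and 76.1% of the tags in small replicates 2 and 4, against 83.4% to 85.1% in big, and the end base itself was C for 21.6% and 31.1%, against 16.5% to 17.7%. The tags on the transcript strand made up 99.2% and 97.0%, against 99.3% to 99.5% in big. The part of these differences in the calls was not tested.

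Among the members called longer in small, BDF1, a bromodomain protein, had 246 and 226 nt in small, against 116, 114 and 114 nt in big, a difference of 117 ± 5.60 nt (SE; limma, adjusted p = 6.67e-06), and 84 tags lay behind the value of small replicate 2, at 1.60 expected positions in 50 tags. POP1, a subunit of ribonucleases P and MRP, had 221 and 221 nt in small, against 149, 162 and 168 nt in big (limma, adjusted p = 0.00736). KAR2, the Hsp70 chaperone of the endoplasmic reticulum, had 213 and 204 nt in small, against 152, 142 and 154 nt in big (limma, adjusted p = 0.0298). TIF1, which encodes initiation factor 4A and has a close paralogue, had 215 and 175 nt in small, against 120, 114 and 119 nt in big (limma, adjusted p = 0.0395). In end use the small libraries differed in both KAR2 and TIF1, and neither was called. The distal share of KAR2 was 33.1% and 97.2% in small, against 46.1%, 34.8% and 27.4% in big. That of TIF1 was 97.3% and 6.43% in small, against 8.83%, 4.30% and 7.03% in big. OXR1 had 110 and 199 nt in small, against 63.5, 61.7 and 65.4 nt in big (limma, adjusted p = 0.0345). Among the members called shorter, YKR018C had 128 and 185 nt in small, against 250, 244 and 242 nt in big, and DAM1, a kinetochore protein, had 238 and 254 nt in small, against 289, 306 and 302 nt in big. The small libraries differed in DAM1's end use, with distal shares of 5.48% and 98 of 98 tags in small, against 77.2%, 84.0% and 92.9% in big. GRX3, a glutaredoxin, had 52.5 and 71.3 nt in small, against 91.1, 92.4 and 101 nt in big.

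Shares in end use are of the tags at the 2 main ends, and tags elsewhere in the window are left out. CWP2 had 55 of 55 such tags and 99.99% at the distal end in small, against 85.1%, 95.7% and 96.3% in big. In small replicate 2 its window held 149 tags in all, so most lay at neither end. Its distal end had 29.4 and 1670 CPM in small, against 197, 196 and 225 CPM in big. SEC21, a subunit of the COPI coat, had 53 of 53 and 1555 of 1555 such tags at the distal end in small (of 59 and 2581 in the window), against 91.6%, 91.8% and 84.6% in big. RPS29B, a ribosomal protein of the small subunit with a close paralogue, had 16 of 16 and 95.7% distal tags in small, against 36.9%, 38.9% and 37.6% in big. The 16 are few of the 199 tags in its window in small replicate 2, and the others lay at neither end. SNF6, a subunit of the SWI/SNF remodeller, had 428 of 428 (of 516 in the window) and 99.2% distal tags in small, against 87.1%, 81.7% and 91.5% in big, and PMT2 had 98.9% in both small libraries, against 82.5%, 77.3% and 89.8% in big. HIF1, a histone chaperone, had 0 of 208 and 0 of 201 distal tags in small, which allows shares of up to 1.44% and 1.49%, against 14.8%, 10.5% and 19.2% in big. In 50 of its tags, 1.0 and 4.65 positions are expected in small, against 7.91 to 11.3 in big. These limits take each tag as independent, which so few positions leave in doubt. GRX3 had 0.556% and 3.10% in small, against 26.0%, 17.7% and 23.1% in big, and ADE8, an enzyme of purine synthesis, had 42.9% and 74.95% in small, against 94.9%, 96.4% and 94.3% in big. All 8 were called (edgeR, adjusted p between 0.00494 and 0.0457). ADE8 had a single end over the 12 libraries. Its second end was counted only with the small libraries added, so its call is not independent of how the ends were chosen.

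The tag minimum sets the edge of the member list. At their lowest of the 12 libraries, 48 members had 50 to 54 tags, and 57 further tandem genes fell just short with 45 to 49.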

How the data were processed

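The deposited table holds the authors' raw counts of 3′ end tags per stranded genome position, 1 column per library, measured with 3′T-fill; no normalization is recorded. CASAVA 1.8.2, GSNAP and the builds R64 and sacCer3 come from the submitters' processing notes; their roles, any filter on positions and any removal of duplicates are not given in the sources used here. Intervals and limits cover counting error only, since tags are reads without molecular identifiers in the labels. Depth was 1506960 to 4750543 tags in the 12 libraries of the 5 groups with a tag minimum.

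The strand was turned, since tags lie opposite to the strand column. Positions 1 to 400 nt after the ORF and before the next gene were kept. Length was tested with limma 3.58.1 (weights are tags, capped at 200), and the log2 odds of distal to proximal tags with edgeR 4.0.16 (quasi-likelihood, a term per library), in R 4.3.3, over all genes with at least 50 tags in every library fitted, with Benjamini-Hochberg adjustment at 0.05; DESeq2 1.42.0 was an alternative. Ends are peaks with centres more than 30 nt apart and at least 10% of the tags within 15 nt. The small comparison used 14 libraries, also to count its ends. The code was tested on simulated data.

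The members and lists were chosen with earlier results of these data known. Named are up to 5 members per direction, comparison and measure with the largest called difference and no overlap between libraries, the 5 longest, shortest, most and least dispersed, and listed well-studied genes; others named are marked. Alternatives changed the window, tag minimum, A-rich positions (at least 7 of the 10 bases downstream), weights, end definition, libraries and replicate block.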

Additional observations from a re-analysis of the deposited data

How the results depend on the processing

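The direction of the median difference between YPD2 and YPD05 held under each alternative run: -9.63 to -2.5 nt over 16 alternatives in length and -2.37 to -0.88 (log2 odds) over 17 in end use. The counts of called members did not hold. Of 147 recomputed counts over the 10 tests, 77 stayed within 1.5 times the reported count and 70 moved, and why they moved was not tested beyond what each setting leaves out. Depth limits single members: the median 95% half-width was 8.78 nt and 1.97 (log2 odds) for YPD2 against YPD05 and 10.4 nt and 2.60 for small against big. A separate transcript within a window, such as an unannotated non-coding RNA, cannot be told apart from a longer 3′ UTR. Calls beyond the threshold with 2 libraries a group rest on a spread shared by all groups.

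Counts for YPD2 against YPD05 were 30 in length as reported, and 61 in a window of 200 nt, 0 with only the 2 groups, 12 with the replicate block and 1 with 14 libraries. In end use they were 60 as reported, 148 with DESeq2, 0 with only the 2 groups and 0 with 14 libraries; 52 with the replicate block. With nofix, total or big in place of YPD05, alternatives chosen after seeing the data, they were 167, 235 and 206 in length and 111, 127 and 132 in end use. Leaving out 1 library gave 0 to 293 in length and 0 to 225 in end use.

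For nofix against YPD05 (2 in length, 0 in end use) length counts were 0 in a window of 200 nt, 6 with a minimum of 10 tags, 0 without A-rich positions, 8 with the median distance, 0 with only the 2 groups, 0 with the replicate block, 1 with 14 libraries and 0 to 27 without 1 library; end use counts were 5 with DESeq2 and 0 to 5 without 1 library. For total against nofix (3 and 1) length counts were 0 at 200 nt, 15 with 10 tags, 6 without A-rich positions, 9 with the median distance, 0 with only the 2 groups, 0 with the replicate block and 2 to 29 without 1 library; end use counts were 0 at 200 nt, 4 with 10 tags, 0 without A-rich positions, 5 with DESeq2, 0 with 14 libraries and 0 to 1 without 1 library. For big against total they were 0 in each alternative and each measure.

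For small against big (32 and 11) length counts were 14 with a minimum of 100 tags, 93 with 10 tags, 19 with no weights, 0 with only the 2 groups and 7 to 243 without 1 library; end use counts were 21 with 10 tags, 2 with ends of 25 nt either side, 1 with a second end of at least 20%, 51 with DESeq2, 0 with only the 2 groups and 4 to 161 without 1 library. Small and big share too few replicate numbers for a paired fit.

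Over the 940 members, Pearson's r between the length deviations of same-numbered libraries of 2 groups was -0.487 to 0.253. For big and total it was -0.487, -0.378 and 0.253 in replicates 1, 2 and 3. With 2 libraries a group, the deviations mirror each other, so r is the same for both numbers when both groups have 2. These r cannot settle whether the numbers are pairs, and the numbers were not taken as pairs. Pairing nofix replicate 1 with YPD05 replicate 2 and the reverse, chosen after seeing that r was -0.2 between these groups, called 0 members in length and 0 in end use.

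Of 404 recomputed values for the 32 called results of named members, 251 stayed past the threshold, 150 kept their direction without passing it and 3 turned: RPS27B at 200 nt (-1.70 nt in nofix against YPD05 and 0.825 nt in total against nofix) and NNR1 (8.18 nt in YPD2 against nofix).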
